A study of Mus musculus with 6 samples.

Results

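The 10 genes described here encode hydroxysteroid dehydrogenases and steroid reductases of the liver, namely Hsd3b2, Hsd3b3, Hsd3b5, Hsd11b1, Hsd17b2, Hsd17b6, Hsd17b11, Hsd17b13, Srd5a1 and Akr1c6, out of 25403 genes listed in the count table. They were matched by gene symbol, and each symbol had a row. Hsd3b5 was picked for its near loss in the Themis-KO livers, so its values are given as a description with no test. The other 9 are steroid enzymes set beside it for contrast, and they were chosen with earlier results of these data known. Poly(A) RNA was sequenced from the livers of 3 wild-type (WT) C57BL6/J mice and 3 whole-body Themis-knockout (KO) mice. Themis encodes an adaptor protein known for its role in T cell receptor signalling. From 10 to 12 weeks of age, mice of both genotypes ate the same diet for 3 months, used to produce metabolic dysfunction-associated steatohepatitis (MASH). Fat gave 40 and fructose 20 percent of its energy and cholesterol was added at 2%. No chow-fed livers were analysed here. The knockout covers every tissue, and the labels do not name its allele or the sex of the mice. The study's legend for its WT and Themis-KO mice on this diet names males, and its methods mention livers of both sexes for gene expression. Y-linked transcripts were found in every liver, as described below. Nothing says whether the livers of a group came from separate cages or litters, so that p-values measure the spread between these samples.

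The libraries held 20679642 to 25649767 counts. Values are CPM, read counts relative to the scaled library size (TMM), and log2 fold changes are KO over WT with a standard error (SE). They and their Benjamini-Hochberg adjusted p come from edgeR, fitted over 14496 genes, and a gene was called at an adjusted p under 0.05. The Themis counts did not separate the labels, with 8.07, 25.6 and 12.0 CPM in the livers labelled WT and 8.63, 7.74 and 9.97 CPM in the livers labelled Themis-KO (log2 fold change -0.79, SE 0.381, adjusted p = 0.199 by edgeR). Counts over the whole gene can include transcripts of a disrupted allele, and the part deleted is not given, so this is no full check of the labels. Livers are therefore named by their labels throughout. WT livers 1 and 2 also stood apart from the other 4 in the share of Gm28438 among the counts of Gm28438 and mt-Nd3, which was 96.6% and 96.8% in them and 2.2% to 3.26% in the others.

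Steroid hormones and bile acid precursors are passed between active and inactive forms by oxidation or reduction of a hydroxyl or keto group at a fixed position of the ring system, with NAD or NADP as cofactor. Most of these enzymes belong to the short-chain dehydrogenase family, while Akr1c6 is an aldo-keto reductase and Srd5a1 is a membrane reductase that acts on a ring double bond. The liver is a main site of steroid inactivation and of local glucocorticoid regeneration, and in mice several of its steroid enzymes are expressed at different levels in males and females. Mouse Hsd3b5 is known as a liver enzyme of the male, with reductase rather than dehydrogenase and isomerase activity.

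Hsd3b2, Hsd3b3 and Hsd3b5 lie in 1 cluster on the minus strand of chromosome 3 (GRCm38, GENCODE vM21). Hsd3b5 (ENSMUSG00000038092) spans chr3:98618634-98630252, Hsd3b2 (ENSMUSG00000063730) spans chr3:98709255-98724543 and Hsd3b3 (ENSMUSG00000062410) spans chr3:98741523-98763127. The coding sequences are 1119 bases long in each. Over that length Hsd3b5 shared 80.3% of aligned bases with Hsd3b2 and 79.5% with Hsd3b3, while Hsd3b2 and Hsd3b3 shared 95.1%. The first 90 coding bases, in exons of the 3 genes, are shown because reads must be told apart by such differences. Capitals mark the 16 positions at which the 3 genes are not all alike.
Hsd3b5: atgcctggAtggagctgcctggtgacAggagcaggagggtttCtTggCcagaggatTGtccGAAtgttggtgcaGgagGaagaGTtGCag
Hsd3b2: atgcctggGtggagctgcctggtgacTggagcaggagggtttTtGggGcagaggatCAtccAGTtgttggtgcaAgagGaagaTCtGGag
Hsd3b3: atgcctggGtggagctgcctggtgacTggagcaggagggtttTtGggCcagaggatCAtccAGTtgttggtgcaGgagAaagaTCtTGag
Stretches about as long as the sequenced reads, 150 bases, rarely occurred in another gene. Of the 1400 such stretches of Hsd3b5, 17 (1.21%) also occurred in Gm10681 or Hsd3b4, neither of which is in the count table used here. The share was 2.16% for Hsd3b2, all with Hsd3b3, and 1.33% for Hsd3b3, with Hsd3b2 and Hsd3b6. Exons of Zfp697 on the opposite strand overlap Hsd3b2 and Hsd3b3, and whether counting used strand is not stated.

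The 250 bases before the RefSeq start sites of Hsd3b5 and Hsd3b3 (GRCm38.p6, minus strand) are shown because these neighbours had the lowest and the highest level of the 3 genes. They lie at chr3:98645535-98645784 and chr3:98763129-98763378. The RefSeq start site of Hsd3b5 is 15282 bases upstream of the one in GENCODE, and which start the liver transcripts used was not measured. Capitals mark bases that differ in an alignment of 202 columns, of which 74.8% were identical, and bases outside the alignment are in lower case.
Hsd3b5: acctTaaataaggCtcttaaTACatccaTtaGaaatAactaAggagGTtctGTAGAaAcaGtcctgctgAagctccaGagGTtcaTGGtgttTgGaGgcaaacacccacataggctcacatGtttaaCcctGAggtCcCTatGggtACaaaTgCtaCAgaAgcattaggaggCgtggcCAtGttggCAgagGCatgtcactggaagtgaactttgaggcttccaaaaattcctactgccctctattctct
Hsd3b3: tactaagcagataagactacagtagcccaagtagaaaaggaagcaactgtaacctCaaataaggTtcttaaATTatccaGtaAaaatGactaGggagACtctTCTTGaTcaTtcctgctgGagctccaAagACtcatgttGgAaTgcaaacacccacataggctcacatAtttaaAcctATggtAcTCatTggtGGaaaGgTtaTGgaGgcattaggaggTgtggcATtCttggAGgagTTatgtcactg
Among the 9 members with a RefSeq promoter entry, none held the STAT5-type motif TTCNNNGAA in these 250 bases, which 7.02% of 32851 promoters held. The CEBP-type motif TTGCNNAA, held by 9.56% of promoters, occurred in Hsd17b11 alone, and TATAAA, held by 12.4%, in Akr1c6 alone. Both strands were searched, and a match is a description of the letters only.

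Hsd3b5 was near absent from the livers labelled Themis-KO. It had 30.3, 2.59 and 12.6 CPM in the WT livers and 0.127, 0.129 and 0.0472 CPM in the KO livers, from 660, 54 and 320 counts and from 3, 3 and 1 counts. Every KO liver lay below every WT liver, and the WT livers themselves were far apart, with WT liver 2 lowest. Over the summed, scaled counts the WT level was 148 times the KO level, with an exact 95% interval of 71.4 to 368. Against all KO livers, WT liver 1 alone gave a ratio of 294 (142 to 734), WT liver 2 a ratio of 25.2 (11.4 to 65.5) and WT liver 3 a ratio of 123 (58.8 to 307). These intervals cover counting error only and not the spread between livers.

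Of the neighbouring Hsd3b2 and Hsd3b3, which oxidise and isomerise steroids on the way to active hormones, Hsd3b3 was called lower in KO livers and Hsd3b2 was not. Hsd3b3 was at 221, 248 and 179 CPM in WT livers and at 98.4, 96.1 and 151 CPM in KO livers. The groups did not overlap, and edgeR put the log2 fold change at -0.91 (SE 0.197, adjusted p = 0.0369). Hsd3b2 was at 44.6, 68.8 and 37.9 CPM in WT livers and at 14.4, 13.0 and 35.5 CPM in KO livers. Those groups did not overlap either, but KO liver 3 came close to WT liver 3. The fitted difference, -1.27 on the log2 scale (SE 0.397, 95% interval -2.19 to -0.35), missed the threshold with edgeR's adjusted p at 0.0799. Hsd3b2 passed in 2 of 14 alternative fits.

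The share of each gene in the cluster's counts is given next, as a description. Hsd3b5 gave 10.2% (95% Wilson interval 9.52 to 11), 0.811% (0.622 to 1.06) and 5.5% (4.94 to 6.11) of the summed Hsd3b2, Hsd3b3 and Hsd3b5 counts in WT livers. In KO livers it gave 0.113% (0.0384 to 0.331), 0.118% (0.0402 to 0.347) and 0.0254% (0.00448 to 0.144). Hsd3b3 was the main gene in every liver, with 74.7% to 78.0% of the counts in WT livers and 80.9% to 88% in KO livers. The 3 genes summed to 296, 319 and 230 CPM in WT livers and to 113, 109 and 186 CPM in KO livers. WT liver 2 had the highest sum but the lowest share of Hsd3b5 among the WT livers.

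**Figure D1:**
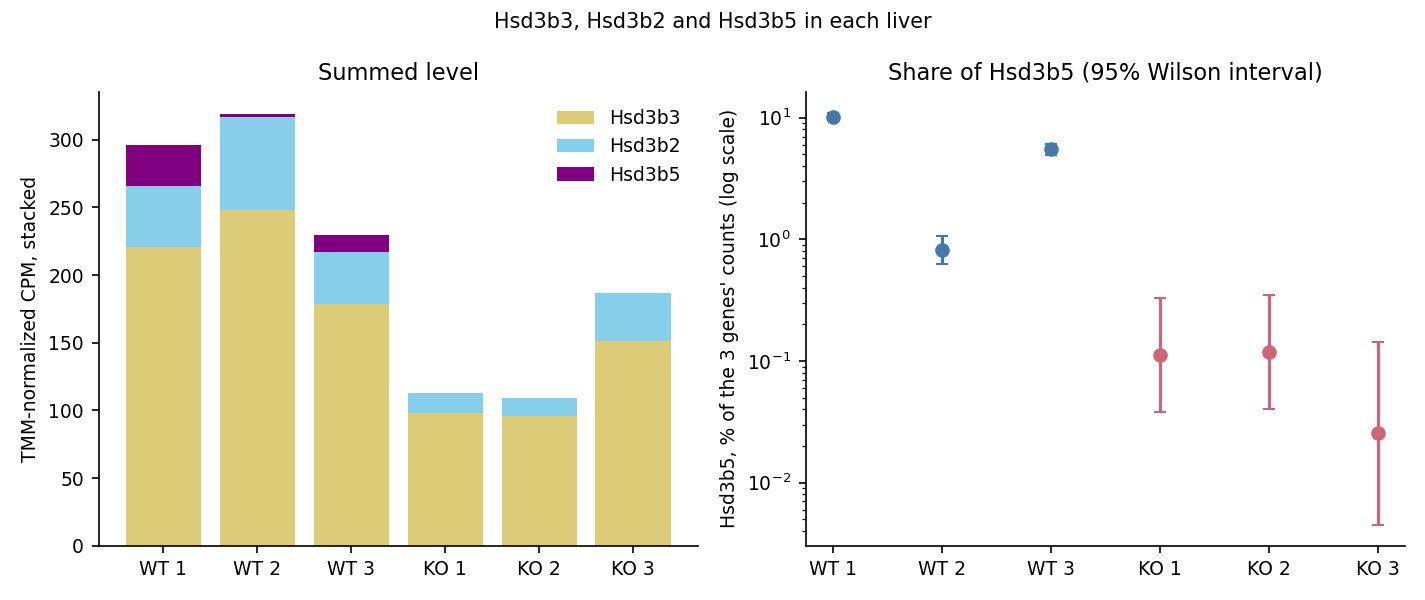
Left, stacked bars of the TMM-normalized CPM of Hsd3b3, Hsd3b2 and Hsd3b5 in each of the 6 livers. Right, the percent of the 3 genes' counts that came from Hsd3b5 on a log scale, with 95% Wilson intervals: the WT livers lie between 0.811% and 10.2% and the KO livers at or below 0.118%.

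No neighbour of the cluster was called. Within 300 kb of Hsd3b5, Zfp697 (log2 fold change 0.05, adjusted p = 0.865 by edgeR) and Hao2 (-0.05, adjusted p = 0.942) were the only genes tested besides the members, and neither had an unadjusted p under 0.05. Hsd3b1, the form typical of gonad and adrenal, had counts in 1 of 6 livers, at 0.0789 CPM. Phgdh, an enzyme of serine synthesis, and Gm4450 were below the filter on low counts. Hsd3b4 and Hsd3b6 were not analysed here.

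Of the 9 members besides Hsd3b5, 3 were called lower in KO livers (Hsd3b3, Hsd11b1 and Srd5a1), none was called higher and 6 were not called, against 4.14% of all tested genes called lower and 4.97% called higher, 9.11% in all. In 6 of the 9, every KO liver lay below every WT liver, which held for 16.9% of tested genes, and in 0 of the 9 every KO liver lay above, which held for 17.7%. At an unadjusted p under 0.05, 7 of the 9 were lower and 0 higher, as were 13.9% and 16.8% of all genes, and DESeq2 also called 0 higher, against 8.02% of genes. Their median log2 fold change was -0.45, beside 0.01 over all genes tested. All 9 passed the filter on low counts. The number called lower was 0 without WT liver 1, WT liver 2, KO liver 1 or KO liver 2, in which 0.216%, 0.384%, 0.0814% and 0.278% of all genes were called lower. It was 2 without WT liver 3 (2.49% of all genes), 6 without KO liver 3 (13.8%) and 0 with a covariate for the Gm28438 split (0.0207%), and no member's fold change turned its sign in these fits.

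**Figure D2:**
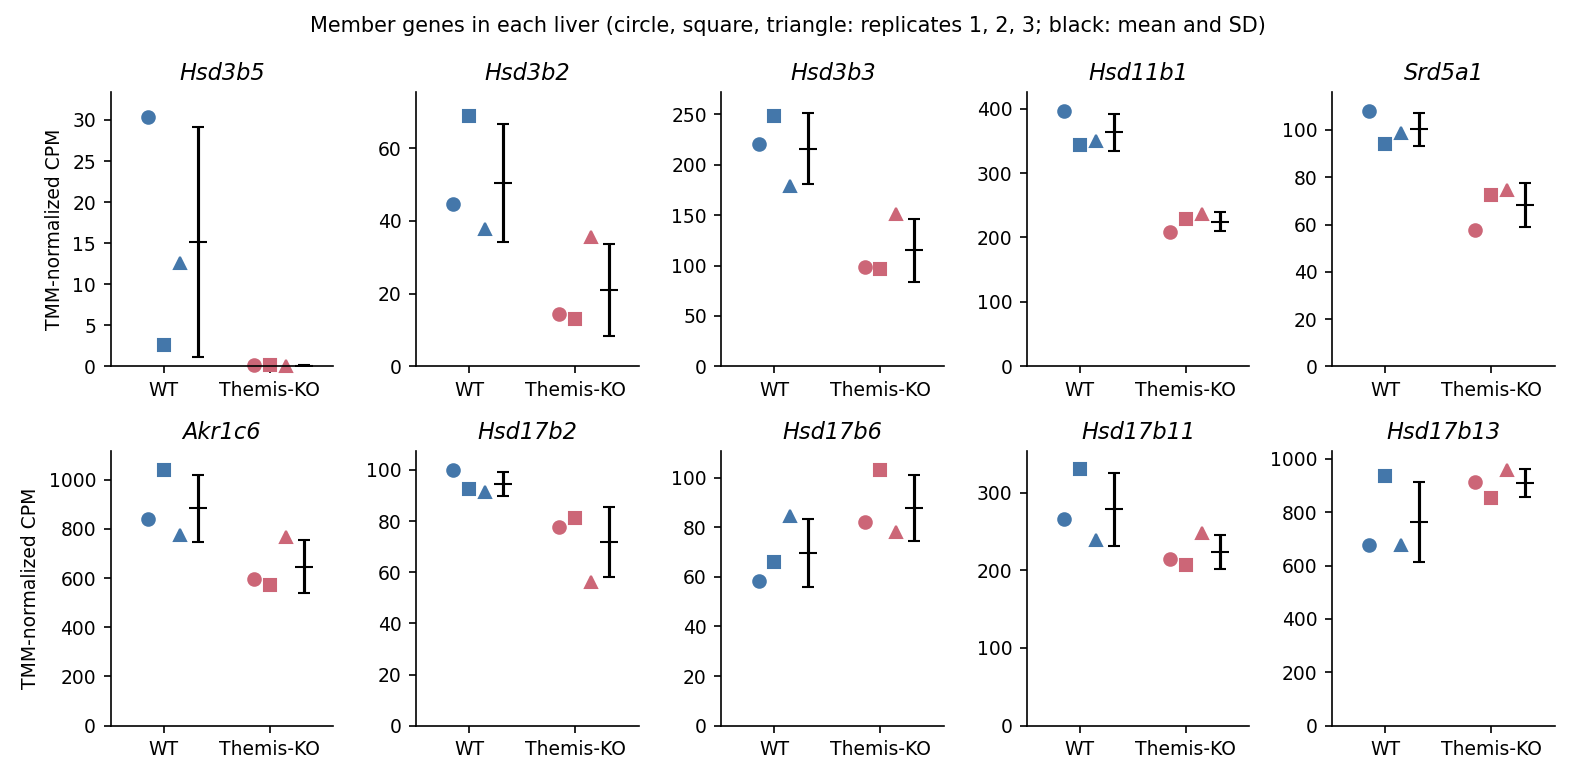
TMM-normalized CPM of the 10 members in each liver, with a linear axis from 0 in each panel; symbols mark the replicate number and black bars the mean and SD of 3 livers. Hsd3b5 sits at or below 0.129 CPM in the KO livers. Its groups do not overlap, nor do those of Hsd3b3, Hsd11b1 and Srd5a1, the members called lower. The groups also do not overlap in Hsd3b2, Hsd17b2 and Akr1c6, which were not called.

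Hsd11b1 (ENSMUSG00000016194, chr1:193221634-193264075, minus strand), the reductase that regenerates active glucocorticoid from its inert keto form, fell in KO livers. It was at 396, 344 and 350 CPM in WT livers and at 208, 228 and 237 CPM in KO livers. The spread within each group was small beside the gap between them, and edgeR put the KO level at 61.8% of WT (log2 fold change -0.69, SE 0.0969, adjusted p = 0.0134). Of the genes around this step, H6pd, which supplies its NADPH in the endoplasmic reticulum, had a log2 fold change of 0.03 (adjusted p = 0.91), and Hsd11b2, the enzyme of the opposite reaction, was below the filter.

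Srd5a1 (ENSMUSG00000021594, chr13:69573449-69611442, minus strand), which reduces testosterone and other steroids at the ring double bond, also fell. It was at 108, 94.1 and 98.6 CPM in WT livers and at 57.5, 72.3 and 74.6 CPM in KO livers, with no overlap (log2 fold change -0.56, SE 0.117, adjusted p = 0.0345 by edgeR). Of its 150-base stretches, 12.0% also occur in Gm17108, an annotated gene on the same strand. Srd5a2, the other testosterone reductase, was expressed at a low level, 2.11, 2.59 and 3.12 CPM in WT and 1.32, 1.72 and 1.56 CPM in KO livers (log2 fold change -0.77, SE 0.23, adjusted p = 0.072). Srd5a3, which acts on polyprenols in glycosylation, had a log2 fold change of 0.33 (adjusted p = 0.151).

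Akr1c6 (ENSMUSG00000021210, chr13:4434306-4457877, plus strand), a liver reductase that can form testosterone from androstenedione, was at 841, 1038 and 776 CPM in WT livers. In KO livers it was at 598, 574 and 769 CPM. KO liver 3 came close to WT liver 3, the lowest of its group, and the log2 fold change of -0.45 (SE 0.154, 95% interval -0.81 to -0.10) missed the threshold (adjusted p = 0.0961 by edgeR). It passed in 3 of 14 alternative fits. Among these were DESeq2 (adjusted p = 0.0325), which called 7.12% of genes lower, and edgeR with no filter on low counts (adjusted p = 0.0388), which called 3.81% lower.

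None of the 4 Hsd17b members passed the test, in either direction. Hsd17b2 (ENSMUSG00000031844, chr8:117701904-117759027, plus strand), which oxidises estradiol and testosterone to weaker forms, was at 100, 92.4 and 91.4 CPM in WT and at 77.6, 81.4 and 56.0 CPM in KO livers. The groups did not overlap, and edgeR put the log2 fold change at -0.40 (SE 0.141, 95% interval -0.73 to -0.08, adjusted p = 0.104). Hsd17b2 passed in 1 of 14 alternative fits. Hsd17b6 (ENSMUSG00000025396, chr10:127990936-128007611, minus strand), related to the retinol dehydrogenases and active on androgen metabolites, was at 58.3, 65.8 and 84.7 CPM in WT and at 81.9, 103 and 78.1 CPM in KO livers. Its groups overlapped (log2 fold change 0.33, SE 0.162, 95% interval -0.04 to 0.71, adjusted p = 0.203).

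Hsd17b11 and Hsd17b13, neighbours on the minus strand of chromosome 5, encode proteins of the lipid droplet surface. Hsd17b11 (ENSMUSG00000029311, chr5:103989762-104021919) was at 266, 330 and 239 CPM in WT and at 214, 207 and 248 CPM in KO livers, with overlap (log2 fold change -0.32, SE 0.136, adjusted p = 0.158 by edgeR). Hsd17b13 (ENSMUSG00000034528, chr5:103955440-103977410), linked in human genetics to steatohepatitis, was at 676, 937 and 676 CPM in WT and at 914, 855 and 960 CPM in KO livers. Its groups also overlapped, with WT liver 2 inside the range of the KO livers (log2 fold change 0.25, SE 0.143, 95% interval -0.08 to 0.59, adjusted p = 0.266). The intervals of these genes still allow modest changes in level.

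**Figure D3:**
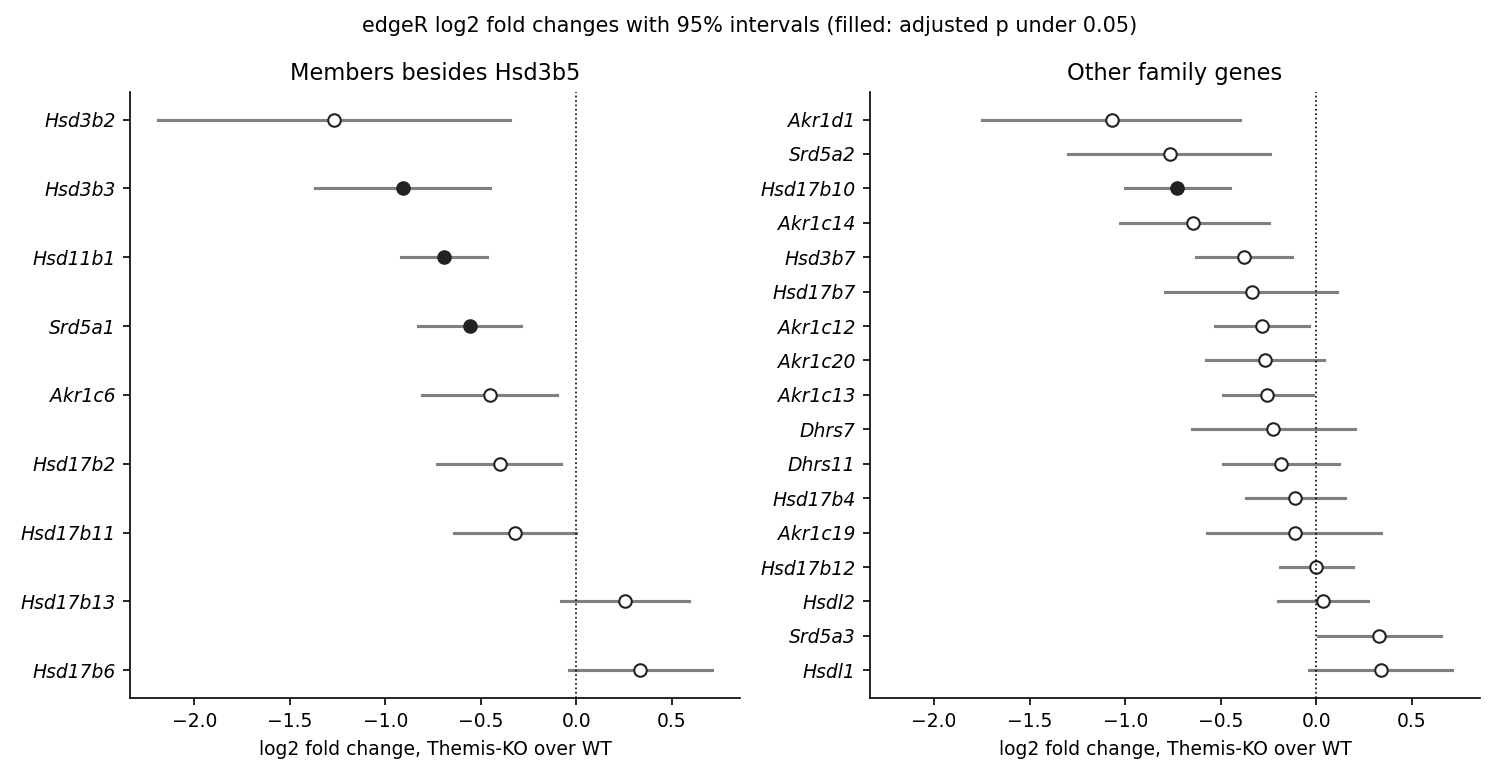
Points are edgeR log2 fold changes (KO over WT, horizontal axis) with 95% intervals for the 9 members besides Hsd3b5 (left) and the 17 other family genes tested (right), and filled points have an adjusted p under 0.05. Filled points are Hsd3b3, Hsd11b1 and Srd5a1 on the left and Hsd17b10 on the right, all below 0.

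Per kilobase of transcript, Akr1c6 had the highest WT level of the 10, 634 ± 97.9 CPM per kb (SD, n = 3). It was followed by Hsd17b13 (447 ± 88.1), Hsd11b1 (224 ± 17.4), Hsd17b11 (152 ± 25.6), Hsd3b3 (145 ± 23.2), Hsd17b2 (71.8 ± 3.76), Hsd17b6 (41.9 to 60.9 over the 3 livers), Srd5a1 (37.9 ± 2.73), Hsd3b2 (28.2 ± 9.1) and Hsd3b5 (9.79 ± 9.05). Neighbours in this order did not overlap over the WT livers, except Hsd17b11 with Hsd3b3 and Srd5a1 with Hsd3b2. In KO livers Hsd17b13 (532 ± 30.8) stood above Akr1c6 (463 ± 76.2), although their ranges, 500 to 562 and 411 to 551, overlapped. Lengths are of the transcript with the longest coding sequence. With the summed exon length instead, Hsd3b3 moved from place 5 to place 8 in WT livers.

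**Figure D4:**
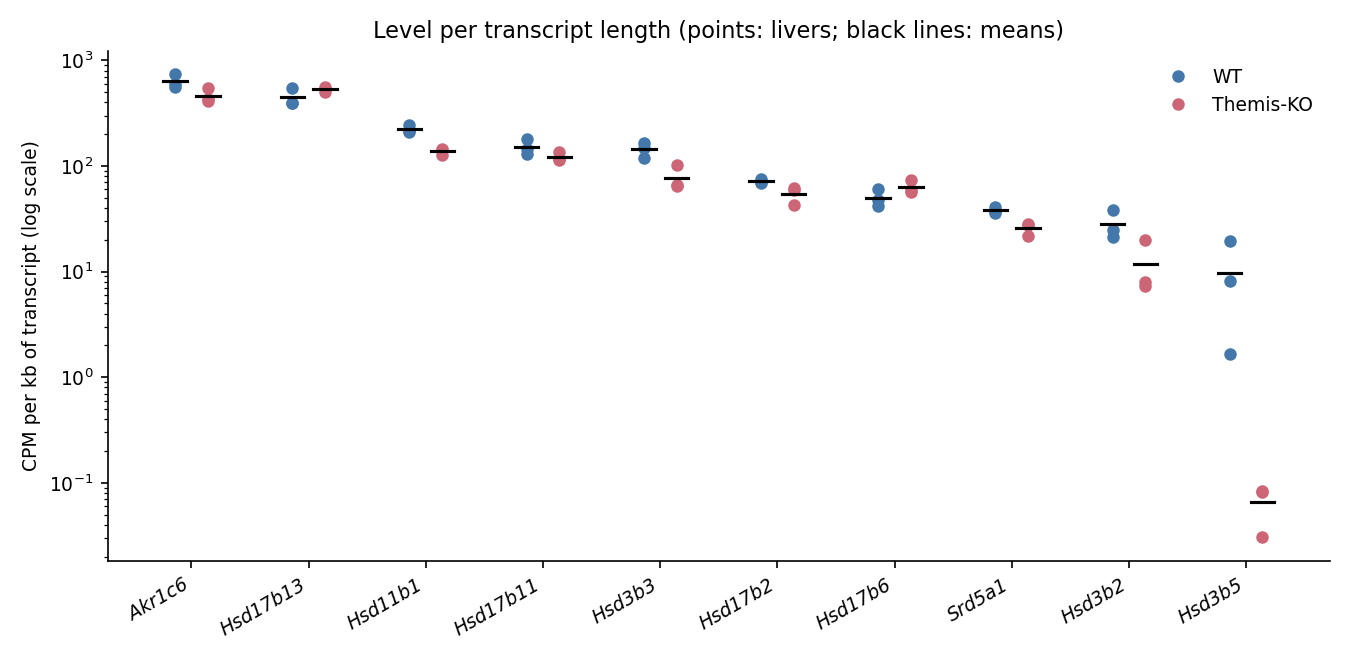
Level per kilobase of transcript (CPM per kb, log scale) of the 10 members in order of their WT mean, with points for the livers and black lines for the means. The levels run from 634 CPM per kb in Akr1c6 to 9.79 in Hsd3b5 in WT livers, and to 0.0654 in Hsd3b5 in KO livers.

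Among the KO livers, liver 3 lay nearest to the WT mean in 7 of the 10 members and liver 2 in the other 3. The exceptions included Hsd17b2, in which KO liver 3 was the lowest of all. They also included Hsd3b5, whose KO levels rest on 3, 3 and 1 counts, too few to rank those livers. Hsd3b5 did not follow the order of Hsd3b2 and Hsd3b3 among the WT livers, since liver 2 was lowest in the former and highest in the latter pair.

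The genes whose log2 CPM most resembled that of Hsd3b5 over the 6 livers were Zfp446 (Pearson r = 0.995), Mup19 (0.995), Atg101 (0.994), Ncoa2 (0.993) and Serpina1a (0.99). The livers form 2 labelled groups, so that any gene with a gap between them scores high on this measure. Mup19, which encodes a major urinary protein, was at 288, 126 and 235 CPM in WT and at 38.2, 39.9 and 39.5 CPM in KO livers, so that WT liver 2 was again the lowest of its group. It belongs to a family of near-identical genes among which reads can be split in error. Atg101, an autophagy factor, and Ncoa2, a coactivator of steroid receptors, had log2 fold changes of -0.41 (adjusted p = 0.0383 by edgeR) and -0.32 (adjusted p = 0.0568). Among the members, r with Hsd3b5 was highest for Hsd11b1 (0.95) and Srd5a1 (0.89) and lowest for Hsd17b13 (-0.84).

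Of 29 other genes of these enzyme families chosen by name, 23 were listed and 17 were tested, and edgeR called 1 lower and 0 higher, a share lower (5.88%) near the 4.14% of all genes. At an unadjusted p under 0.05 by edgeR, 7 of the 17 were lower and 1 higher, beside 13.9% and 16.8% of all genes. DESeq2 called 4 lower and 0 higher, beside 7.12% and 8.02% of all genes. The median log2 fold change of the 17 was -0.26. The gene called by edgeR was Hsd17b10, a mitochondrial enzyme of branched-chain fatty acid and steroid oxidation, at 178, 187 and 148 CPM in WT and 101, 94.1 and 115 CPM in KO livers (log2 fold change -0.73, SE 0.119, adjusted p = 0.0221 by edgeR). Every KO liver lay below every WT liver in 7 of the 17 and above in 1, beside 16.9% and 17.7% of all genes. Among the 7 was Akr1d1, a reductase of bile acid synthesis, with a log2 fold change by edgeR of -1.07 (SE 0.291) at an adjusted p of 0.0582. Without WT liver 1, WT liver 2, KO liver 1 or KO liver 2, 0 of these genes were called lower. Of all genes, 0.216%, 0.384%, 0.0814% and 0.278% were called lower in those fits. Without KO liver 3 it was 7, beside 13.8% of all genes. Hsd3b1, Hsd11b2, Hsd17b1, Hsd17b14, Akr1c18 and Akr1c21 were below the filter.

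Enzymes that work beside the members included 3 that fell. Of 10 steroid P450s, cofactor suppliers and conjugating enzymes tested, edgeR called Por, Cyp7b1 and Sult2a8 lower and 0 higher. Among all genes tested, 4.14% were called lower and 4.97% higher, and the median log2 fold change of the 10 was -0.27. With DESeq2, as without KO liver 3, 1 was called higher, and at an unadjusted p under 0.05 it was 1. Sult2a8, a liver sulfotransferase, was at 246, 251 and 161 CPM in WT and at 26.2, 24.6 and 32.9 CPM in KO livers (log2 fold change -2.97, SE 0.202, adjusted p = 0.00521 by edgeR). Cyp7b1, an oxysterol hydroxylase of bile acid synthesis, was at 130, 72.5 and 75.8 CPM in WT and at 30.3, 25.5 and 27.5 CPM in KO livers (-1.74, SE 0.225, adjusted p = 0.0123). Por, which passes electrons to microsomal P450s, fell as well (log2 fold change -0.53, SE 0.115, adjusted p = 0.0367). The number called lower was 1 without KO liver 1 or KO liver 2, beside 0.0814% and 0.278% of all genes. It was 2 without WT liver 1 or WT liver 2, beside 0.216% and 0.384% of all genes. Cyp11a1 and Sult2b1 were below the filter.

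Of 9 steroid receptors and carriers tested, edgeR called 0, beside 9.11% of all genes. At an unadjusted p under 0.05 by edgeR, 4 were lower and 0 higher, beside 13.9% and 16.8% of all genes. DESeq2 called 3 lower, beside 7.12%, and edgeR without KO liver 3 called 3 lower, beside 13.8%. All 9 log2 fold changes were negative, with a median of -0.31 beside 0.01 over all genes tested. Esr2 and Pgr were below the filter. Of 12 glucocorticoid receptor target genes, edgeR called 2 higher and 0 lower (median 0.47), against 4.97% and 4.14% of all genes. At an unadjusted p under 0.05 by edgeR, 4 were above and 1 below the WT level, beside 16.8% and 13.9% of all genes. DESeq2 called 2 higher and 0 lower, beside 8.02% and 7.12% of all genes. These were Dusp1, a phosphatase of MAP kinases (log2 fold change 1.09, SE 0.193, adjusted p = 0.0249 by edgeR), and Cebpd, a transcription factor of the acute phase (0.53, SE 0.123, adjusted p = 0.0407). Neither was called without WT liver 1, WT liver 2, KO liver 1 or KO liver 2. Of all genes, 0.0809%, 0.128%, 0.0543% and 0.183% were called higher in those fits. Per1, a clock gene, had every KO liver above every WT liver (log2 fold change 0.41, adjusted p = 0.0903), and the groups overlapped in Sgk1 (0.56, adjusted p = 0.158), Fkbp5, Tsc22d3 and Tat.

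Of 12 lipid droplet genes, edgeR called 3 higher and 0 lower in KO livers (median 0.20), against 4.97% and 4.14% of all genes. At an unadjusted p under 0.05 by edgeR, 4 were higher and 2 lower, beside 16.8% and 13.9% of all genes. DESeq2 called 4 higher and 2 lower, beside 8.02% and 7.12% of all genes. The genes called higher by edgeR were Plin4 (log2 fold change 0.87, SE 0.128, adjusted p = 0.0161 by edgeR), Cidec (0.62, SE 0.109, adjusted p = 0.0249) and Plin3 (0.40, SE 0.0856, adjusted p = 0.0366), which coat droplets or fuse them. Without WT liver 1, KO liver 1 or KO liver 2 none of the 12 was called higher, beside 0.0809%, 0.0543% and 0.183% of all genes. Without WT liver 2 it was 1, beside 0.128% of all genes. Plin2, a droplet coat gene that was not called, had every KO liver above every WT liver (log2 fold change 0.62, SE 0.176, adjusted p = 0.0639 by edgeR). G0s2, an inhibitor of lipolysis, had every KO liver below every WT liver (log2 fold change -0.69, SE 0.187, adjusted p = 0.0577), as did Dhrs3, a retinal reductase (-0.43, SE 0.125, adjusted p = 0.0682). Without KO liver 3, 2 of the 12 were called lower, beside 13.8% of all genes. Hsd17b11 and Hsd17b13, on the same organelle, are described above and were not called.

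Because Hsd3b5 is known as a male-biased gene, other sex-biased liver genes were set beside it. Of 15 male-biased genes tested, edgeR called 11 lower in KO livers and 0 higher, against 4.14% and 4.97% of all genes. Cyp7b1, described above, is among the 11. The median log2 fold change of the 15 was -1.21. The largest falls were in Mup7 (log2 fold change -5.85, SE 0.518, adjusted p = 0.00772 by edgeR), in Slco1a1, an organic anion carrier (-2.89, SE 0.392, adjusted p = 0.0131), and in Cyp4a12b, a fatty acid hydroxylase (-2.09, SE 0.303, adjusted p = 0.0152). Mup7 was at 1636, 562 and 1027 CPM in WT and at 17.1, 27.8 and 10.8 CPM in KO livers, and like Mup19 it belongs to a family that shares reads. Elovl3, a fatty acid elongase, was at 76.5, 66.3 and 47.9 CPM in WT and at 24.4, 24.7 and 24.6 CPM in KO livers (-1.37, SE 0.162, adjusted p = 0.0104). Mup20 and Gstp1, also male-biased, were not called. Of the WT livers, liver 2 was lowest in Mup7, Slco1a1, Cyp7b1 and C6, as in Hsd3b5. WT liver 3 was lowest in the other male-biased genes called, namely Cyp2d9, Cyp4a12a, Cyp4a12b, Elovl3, Nox4, Susd4 and Mup21. The number called was 3 without WT liver 1, 4 without WT liver 2, 1 without KO liver 1 and 3 without KO liver 2. Of all genes, 0.216%, 0.384%, 0.0814% and 0.278% were called lower in those fits. The number called was 10 without WT liver 3 and 11 without KO liver 3, beside 2.49% and 13.8% of all genes. The covariate for the Gm28438 split, which leaves WT liver 3 alone against the KO livers, is treated below.

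Of 8 female-biased genes tested, edgeR called 0, with 3 above and 1 below the WT level at an unadjusted p under 0.05, and DESeq2 called 2 higher and 1 lower. Without WT liver 3 or KO liver 3, edgeR called 1 higher. Their median log2 fold change was 0.56. Cyp2a4, a P450 of steroid hydroxylation, was at 1.74, 14.7 and 21.7 CPM in WT and at 46.8, 55.1 and 109 CPM in KO livers (log2 fold change 2.46, SE 0.701, adjusted p = 0.0645). Cyp3a41a, Cyp3a44, Sult3a1 and A1bg were at or below 0.192 CPM in every liver. The Y-linked genes Ddx3y, Eif2s3y, Kdm5d and Uty were expressed in all 6 livers, Ddx3y at 36.3 to 45.4 CPM, and Xist was at or below 0.378 CPM. Of the 4 Y-linked genes edgeR called 0, with 1 lower at an unadjusted p under 0.05.

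Of 13 genes of growth hormone signalling and liver transcription factors, which set the sex bias of many liver genes, only Ghr, the hormone's receptor, was called. It was at 454, 516 and 414 CPM in WT and at 307, 266 and 354 CPM in KO livers (log2 fold change -0.58, SE 0.132, adjusted p = 0.0404 by edgeR). That call was lost without WT liver 1, WT liver 2, KO liver 1 or KO liver 2. In those fits, 0.216%, 0.384%, 0.0814% and 0.278% of all genes were called lower. Of the 13 genes, 2 were lower without WT liver 3 and 3 without KO liver 3, beside 2.49% and 13.8% of all genes. Socs2 and Cish, early targets of the hormone, had overlapping groups, with log2 fold changes of -0.01 and -0.40. Cux2, a factor of female liver, was below the filter.

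**Figure D5:**
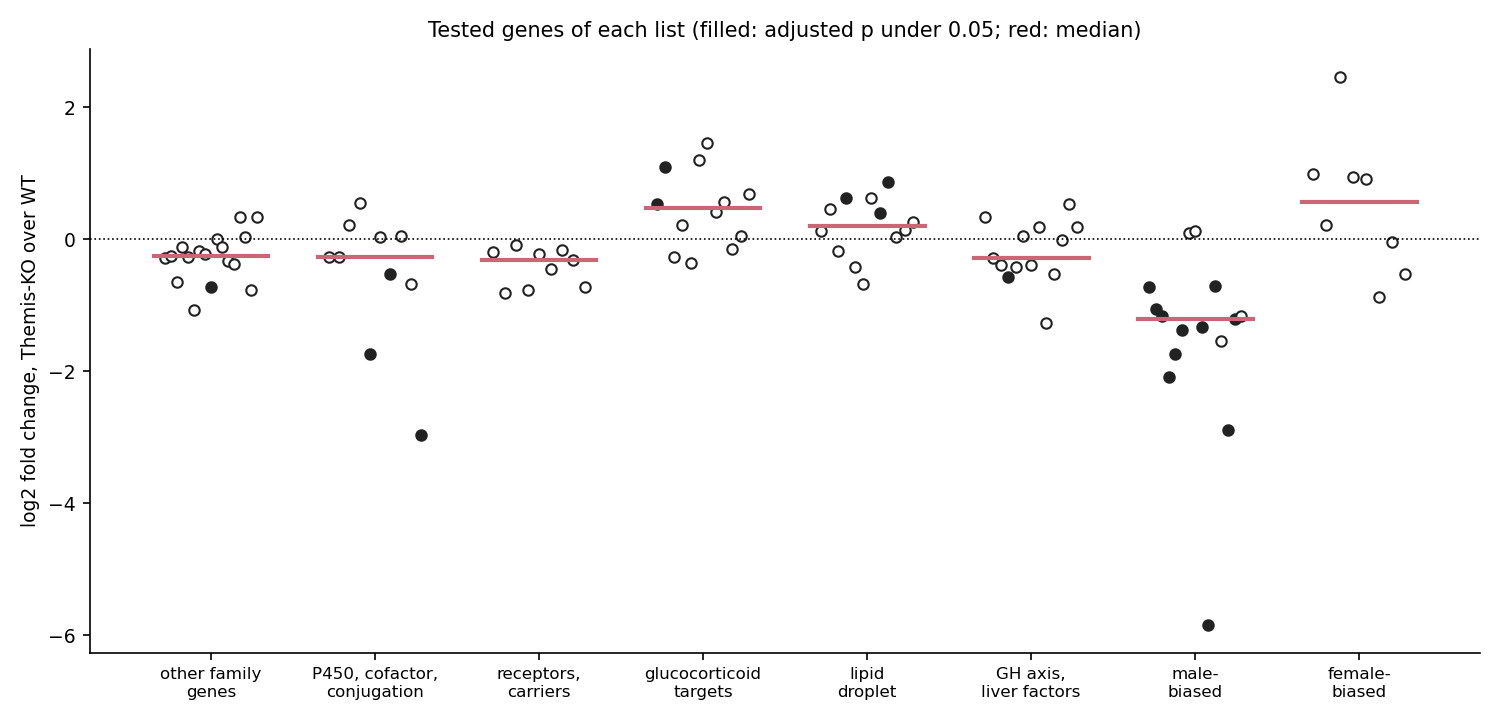
Log2 fold changes (KO over WT, vertical axis) of the tested genes of 8 lists, with filled points for an adjusted p under 0.05 and a red line at each median. The male-biased list has 11 filled points below 0 and a median of -1.21, and the other family genes have 1 filled point and a median of -0.26.

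Within 300 kb of the members outside the Hsd3b cluster, 6 of 43 other genes tested were called (14%), 5 lower and 1 higher, beside 9.11% of all genes. Beside Akr1c6, Hsd11b1 and Srd5a1, 0 of 5, 0 of 6 and 0 of 3 were called by edgeR, with 2, 3 and 1 at an unadjusted p under 0.05. At that unadjusted p, 13.9% of all genes were lower and 16.8% higher. Sdr42e1, a short-chain dehydrogenase 28215 bases from Hsd17b2, fell (log2 fold change -0.88, SE 0.122, adjusted p = 0.0134). Around Hsd17b6, 4 of 21 tested genes fell. These were the dehydrogenases Sdr9c7 (-0.88, SE 0.15, adjusted p = 0.0237) and Rdh16f2 (-1.20, SE 0.117, adjusted p = 0.00918), the glutaminase Gls2 (-0.72, SE 0.0988, adjusted p = 0.0131) and the apolipoprotein gene Apon (-0.45, SE 0.103, adjusted p = 0.0408). Hsd17b6 itself had a positive log2 fold change, and 5.66% of its 150-base stretches also occur in Rdh1 or Rdh16f1, both below the filter. Beside Hsd17b11 and Hsd17b13, Sparcl1, a matrix glycoprotein, rose (1.00, SE 0.141, adjusted p = 0.0136).

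Markers of several liver cell types moved with the labels. Among all genes tested, edgeR called 4.14% lower and 4.97% higher. In these bulk samples, fewer cells of a type and less RNA per cell cannot be told apart. Of 11 hepatocyte markers, 2 were called lower (Serpina1c and Ass1), and their sum was 62931 to 71241 CPM in WT and 52926 to 56474 CPM in KO livers. The median log2 fold change of the hepatocyte markers was -0.29, beside -0.45 for the 9 members. Of 11 stellate cell markers 6 rose, with Col1a1 at 1.15, and their sum went from 452 to 516 CPM in WT to 688 to 739 CPM in KO livers. Of 9 cholangiocyte markers 2 rose (Spp1 and Cldn7; sums 170 to 209 and 402 to 635 CPM), of 12 macrophage markers Cd68 rose (491 to 841 and 825 to 1038 CPM), and of 9 endothelial markers Lyve1 rose (262 to 286 and 293 to 326 CPM). In the cholangiocyte, macrophage and endothelial lists, 4, 7 and 3 markers were higher at an unadjusted p under 0.05 by edgeR, and 0 lower. Of all genes, 16.8% were higher and 13.9% lower at that unadjusted p. Log2 fold changes were negative in 1, 2 and 2 of these markers. Those of the macrophage list were Marco (-1.29) and Timd4 (-0.63), neither called. Of 8 T cell markers tested, which include Themis itself, Cd4 fell, with Cd3d and Cd3g below the filter. Their sums were 12.7 to 30.2 and 11.1 to 16.4 CPM, and without Themis 4.61 to 5.96 CPM in WT and 3.35 to 7.73 CPM in KO livers. Of 7 B cell markers edgeR called 0, with 0 at an unadjusted p under 0.05 (13.6 to 22.8 and 9.59 to 20.4 CPM). The part of these markers in the members' values was not tested.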

How the data were processed

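Bulk RNA-seq of livers from 3 WT and 3 Themis-KO mice was used, with genotypes and replicate numbers from the sample labels. The authors trimmed reads with cutadapt 2.3, aligned them to GRCm38 with STAR 2.7.8a and estimated gene abundance with RSEM 1.3.3, per the labels and the study's methods. They deposited estimated counts (expected counts) per gene, not normalized and held as whole numbers. RSEM divides reads that fit several genes among them. The annotation release and strandedness are not given in the sources used here.

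The genotypes were compared with edgeR 4.0.16 in R 4.3.3 (filterByExpr, TMM, glmQLFit and glmQLFTest), with Benjamini-Hochberg adjustment over the 14496 of 25403 genes that passed the filter, and 10907 were left out. Standard errors and 95% intervals came from the fit. Log2 CPM for the likeness to Hsd3b5 used a prior count of 2. Depth was 20679642 to 25649767 counts a library and the biological coefficient of variation was 0.157, and the libraries differed by more than sampling noise in every pair. Intervals on counts and shares cover counting error only.

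The members and lists were chosen with earlier results of these data known. Genes named were the members, Themis, genes of each list with an adjusted p under 0.05 (at most 6 a list, by size), genes below the filter, the 5 genes most like Hsd3b5 and neighbours within 300 kb. Not every gene under this rule is reported here. Genes of the lists that were named without passing the threshold were chosen after their values were seen. Alternatives were other scalings, no filter, a minimum of 10 counts in each library, DESeq2 1.42.0, a replicate block and leaving out each liver, and the Gm28438 covariate was added after seeing the data. Coordinates and transcripts came from GENCODE vM21, and promoters from RefSeq (GRCm38.p6), which had an entry for 9 of the 10 members. Sequences were aligned with Biopython 1.88, intervals computed with SciPy 1.17.1 and figures drawn with matplotlib 3.10.9. The fits were tested on simulated data.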

Additional observations from a re-analysis of the deposited data

How the results depend on the processing

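In 14 alternatives, every member besides Hsd3b5 kept the direction of its log2 fold change. The count of members called lower, 3, was 2 with total counts alone, 4 with DESeq2, 5 with no filter on low counts, 0 with the replicate block and 0 with the covariate for the Gm28438 split, and 0 to 6 when 1 liver was left out. The study speaks of 3 pairs of livers, and does not say whether equal numbers mark a pair. Deviations of same-numbered livers from their group means correlated at -0.241 to 0.000277. With 3 livers a group this cannot show whether they were paired. The main fit used no pairing, and the replicate block pairs equal numbers. With the replicate block, the adjusted p by edgeR was 0.0995 for Hsd3b3, 0.078 for Hsd11b1 and 0.106 for Srd5a1, and over all genes 45 were called lower and 17 higher, against 600 and 721 without it. The block gave 0 other family genes lower, 0 glucocorticoid targets higher, 0 droplet genes higher, 0 growth hormone axis genes lower and 5 male-biased genes lower. The covariate gave 0 for each of these 5 counts and 1 for the partner enzymes lower. It leaves WT liver 3 alone to stand against the KO livers, and over all genes it called 3 lower and 0 higher. With no filter, 4 other family genes, 3 receptors and carriers, 2 droplet genes, 4 growth hormone axis genes and 1 female-biased gene were lower and 3 female-biased genes higher. With DESeq2, 4, 3, 2, 5 and 1 of the same lists were lower, 2 female-biased genes higher and 1 partner enzyme higher. Total counts alone gave 1 partner enzyme and 1 female-biased gene higher, and at least 10 counts in every liver gave 1 female-biased gene higher. Total counts alone also moved the median of all genes to 0.15 and the calls to 387 lower and 1449 higher, and Srd5a1 to an adjusted p of 0.0526. Leaving out 1 liver gave 0 to 7 other family genes lower and 0 to 1 higher, 1 to 4 partner enzymes lower and 0 to 1 higher, 0 to 3 receptors and carriers lower, 0 to 2 glucocorticoid targets higher, 0 to 2 droplet genes lower and 0 to 4 higher, 0 to 3 growth hormone axis genes lower and 0 to 2 higher, 1 to 11 male-biased genes lower and 0 to 1 female-biased genes higher. The causes were not tested. The log2 ratio of Hsd3b5, WT over KO, was 7.23 and lay between 6.23 and 7.73 when 1 liver was left out. Its KO level rests on 7 counts, which limits the precision of that ratio.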
